A study of Mus musculus with 49 samples.

Results

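The interferon regulatory factors (IRFs) are transcription factors that share a DNA-binding domain, and the mRNA of 8 of them, *Irf1*, *Irf2*, *Irf3*, *Irf4*, *Irf5*, *Irf7*, *Irf8* and *Irf9*, was followed in mouse CD8+ T cells. They were taken by gene symbol, with the longest transcript where a symbol had several, and they are 8 of the 23992 symbols measured. CD8+ T cells were purified with an isolation kit from spleens of C57BL/6J mice aged 8 to 24 weeks and were collected at 0 hr or after 4, 24 or 48 hr in culture with human recombinant IL-2 at 500 IU/ml. No group was cultured without IL-2, so each IL-2 response is also a change with time in culture. In the *Stat5a* line, KI mice carry Y694F, and in the *Stat5b* line they carry Y699F, each a CRISPR-Cas9 change of the tyrosine whose phosphorylation activates that STAT5 protein. Each KI was set beside WT littermates of its own line, so the WT groups of both lines carry neither change. The 16 groups of line, genotype and time have 3 libraries each, and 47 of the 48 libraries were used, since the third library of *Stat5a* KI at 4 hr held 1028515 reads against 17369112 to 60200653 in the rest. The labels do not say that the libraries of a group came from separate mice, so each p-value measures only the spread between libraries. The KI alleles change an amino acid, so the levels of *Stat5a* and *Stat5b* mRNA do not check the labels.

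IRF proteins bind GAAA-containing elements in promoters and enhancers. *Irf3*, *Irf5* and *Irf7* are activated by phosphorylation downstream of microbial sensors and switch on interferon genes, *Irf9* is the DNA-binding part of a complex that answers type I interferon, *Irf1* is an activator and *Irf2* mainly a repressor at interferon-responsive elements, and *Irf4* and *Irf8* act with partners of the ETS and AP-1 families in lymphocytes and myeloid cells. In CD8+ T cells, *Irf4* is known to follow T cell receptor strength and to be needed for expansion and effector differentiation, and IL-2 signals through STAT5, which binds GAS elements, the palindromic sites of STAT dimers.

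The members lie on 6 chromosomes of GRCm38 (mm10), in the RefSeq annotation of that build. *Irf1* spans chr11:53770014-53777324, *Irf4* spans chr13:30749233-30766981, *Irf5* spans chr6:29529282-29537320 and *Irf9* spans chr14:55603985-55610030. *Irf2* (chr8:46739745-46847458) and *Irf8* (chr8:120736358-120756694) share a chromosome, as do *Irf3* (chr7:44997648-45002848) and *Irf7* (chr7:141263183-141266424), and *Irf7* is the one member on the minus strand. The values are over all exons of the transcript, UTRs included. Among these 8, *Irf2* alone overlaps other annotated genes, *Gm31172* and *Gm39170*, which lie on the opposite strand inside its introns and share 0 bases with its exons. The longest *Irf3* transcript is annotated as noncoding.

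The 250 bases upstream of 3 start sites are printed because they show 1 GAS match beside a member whose IL-2 response differed with the *Stat5b* allele at 24 hr (*Irf1*), a pair of matches beside a member whose response differed at 24 and 48 hr (*Irf8*), and none beside the member with the largest such difference (*Irf4*). The sequences are from RefSeq on GRCm38.p6, 5′ to 3′ on the plus strand, and capitals mark the letters TTCNNNGAA, which read alike on both strands. They lie at chr11:53769764-53770013, chr8:120736108-120736357 and chr13:30748983-30749232, in the order shown.
Irf1: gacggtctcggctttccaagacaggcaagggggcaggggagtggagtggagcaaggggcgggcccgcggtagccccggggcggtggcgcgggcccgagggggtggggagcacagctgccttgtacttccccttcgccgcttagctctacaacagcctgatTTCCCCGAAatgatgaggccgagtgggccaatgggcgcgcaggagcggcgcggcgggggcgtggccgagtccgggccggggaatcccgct
Irf8: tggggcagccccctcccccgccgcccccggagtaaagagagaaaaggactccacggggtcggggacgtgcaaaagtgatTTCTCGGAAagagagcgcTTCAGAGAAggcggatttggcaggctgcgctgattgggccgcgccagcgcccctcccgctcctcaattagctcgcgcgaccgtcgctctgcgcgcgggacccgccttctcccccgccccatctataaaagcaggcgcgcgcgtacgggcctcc
Irf4: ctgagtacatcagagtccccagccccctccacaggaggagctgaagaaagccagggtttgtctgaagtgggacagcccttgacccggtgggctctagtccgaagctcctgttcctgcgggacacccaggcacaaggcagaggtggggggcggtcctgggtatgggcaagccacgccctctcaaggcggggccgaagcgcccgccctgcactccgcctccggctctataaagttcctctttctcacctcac

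The match in *Irf1* starts at -90 from the start site, and those in *Irf8* start at -171 and -153. *Irf2* holds 1 match, TTCCGAGAA at -224, in its own 250 bases, and those of *Irf3*, *Irf4*, *Irf7* and *Irf9* hold none, while *Irf5* was not searched. The same letters occur in 2306 of 32851 promoter windows of this length, which is 7.02%. A match is a description of the window and says nothing of binding.

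All 8 members passed the filter on low counts and were among 15566 genes tested. Levels are given as RPKM, a read count corrected for transcript length and library size, which allows comparison between genes. Differences are log2 fold changes with a standard error (SE) from edgeR's quasi-likelihood fit over the 47 libraries with TMM scaling, and every adjusted p is from that test with Benjamini-Hochberg adjustment over all genes tested. Called genes are those with an adjusted p not above 0.05 and a difference of 2-fold or more, which is 1 on the log2 scale. The RPKM scale and TMM place the median of all genes up to 0.36 apart on the log2 scale, at 48 hr against 0 hr, and 15 of the 256 member differences, none of them called or over 0.15 in size, had the other sign on the RPKM scale. Over the 47 libraries, *Irf1* was at 73.3 to 249.7 RPKM (median 152.2), *Irf2* at 32.4 to 84.3 (median 47.9), *Irf8* at 13.3 to 111.1 (median 41) and *Irf9* at 20.5 to 45.1 (median 32.8). *Irf3* was at 11.5 to 35.9 RPKM (median 29.2), *Irf7* at 13.6 to 56.7 (median 26), *Irf4* at 4.55 to 33.8 (median 9.44) and *Irf5* at 1.99 to 26.7 (median 8.87). The 2 least abundant members varied the most, since the highest group mean was 11.4 times the lowest for *Irf5* and 6.04 times for *Irf4*, against 5.61 times for *Irf8*, 3.11 for *Irf7*, 2.33 for *Irf1*, 1.96 for *Irf3*, 1.91 for *Irf9* and 1.79 for *Irf2*. In the order of the 16 group means, the ranges of 12 to 15 of the 15 neighbouring pairs overlapped, depending on the gene. The reads behind a value numbered 260 to 31894 per library.

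Besides the unused library, 2 WT libraries stood apart, and in markers of macrophages and of plasma cells so did replicate 1 of *Stat5a* KI cells. Its macrophage and monocyte sums without *Ly6c2*, the most abundant, were 154.6 against 88 and 101.7 RPKM at 0 hr. At 48 hr they were 72 against 26 and 26.3 RPKM. Its B cell marker sum was the highest at 0 hr (367.1 against 299.1 and 341.7 RPKM) and 24 hr (245.7 against 196.8 and 241.3 RPKM). At 48 hr it was not the highest (127.9 against 114.8 and 136.8 RPKM). Its plasma cell markers without *Xbp1* summed to 73.2 against 23.5 and 24.6 RPKM at 0 hr. Its dendritic cell marker sum at 0 hr was 4337 against 3387 and 3658 RPKM. At 24 and 48 hr, that replicate had the highest *Irf4*, *Irf5*, *Irf7* and *Irf8* of *Stat5a* KI cells. Among *Stat5a* line WT libraries, replicate 2 of 4 hr had 17369112 reads on these transcripts, 44.9% of its mapped reads, against 71.7% and 72.9% in the others of its group. The chi-square per gene between it and the others was 216.9 and 220.7, against a median of 16.57 over 46 pairs of replicates. Its CD8 T cell markers without *Thy1* summed to 750.2 against 1208 and 1330 RPKM. This library holds the lowest value of *Irf1*, *Irf3*, *Irf7* and *Irf8* and the highest of *Irf2* in the whole set. Replicate 3 of 0 hr had the lowest sum of B cell markers of its group, 67.9 RPKM against 176 and 196. The libraries numbered 3 were also the lowest of *Stat5a* line WT cells at 4, 24 and 48 hr (50.3, 29.5 and 15.4 RPKM), and the 0 hr value lay within the 66.6 to 77 RPKM of *Stat5b* line WT libraries. Calls that rest on either WT library are given with and without it. The 10 CD8 T cell markers (*Cd8a*, *Cd3e*, *Thy1* and others) summed to 1402 to 2820 RPKM, and none was at 0 in any library, led by *Thy1* with a mean of 469. Their sums in the *Stat5b* line were 1656 to 1731 RPKM in KI and 1995 to 2237 RPKM in WT at 0 hr. At 48 hr the order was the other way, at 2457 to 2730 against 2215 to 2247 RPKM. The *Stat5a* line had the same order of genotypes at both times.

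Markers of other cells were also present, and they differed between genotypes. The 12 B cell markers, led by *Cd79a*, summed to 276 to 284 RPKM in *Stat5b* KI cells and to 66.6 to 77 RPKM in their WT at 0 hr, and to 142.3 to 149.9 against 13.6 to 15.8 RPKM at 48 hr, and at both times all 12 were called higher in KI. In the *Stat5a* line, 7 of 12 were called higher in KI at 0 hr and 12 of 12 at 48 hr. Of all genes, 7.38% were higher and 0.604% lower in *Stat5b* KI cells at 0 hr, and 16.5% and 9.81% at 48 hr. In *Stat5a* KI cells these shares were 0.861% and 0.180% at 0 hr, and 6.35% and 2.43% at 48 hr. The dendritic cell markers, led by *Cd74*, were called higher in *Stat5b* KI cells at 48 hr for 12 of 12 genes, with sums of 678 to 753 against 69.9 to 97.9 RPKM, and for 6 of 12 at 0 hr, with sums of 3737 to 4773 against 1505 to 2098 RPKM. Of the 13 macrophage and monocyte markers measured, 11 were higher and 1, *Ly6c2*, was lower in that comparison, so that the sums were 293.2 to 382.4 against 570.1 to 596.7 RPKM with *Ly6c2*, the most abundant, and 68.5 to 108.3 against 3.71 to 5.06 RPKM without it. At 0 hr, 11 of 13 were higher, with sums of 239.3 to 326.7 against 209 to 271.2 RPKM, and mean sums of 157.6 against 38.9 RPKM without *Ly6c2*. Erythroid markers, led by *Hbb-bs*, summed to 289 to 717 RPKM in *Stat5b* KI cells and 27.5 to 85.6 RPKM in WT at 0 hr, and to 81.9 to 155.6 against 3.39 to 6.15 RPKM at 48 hr. Of 5 CD4 T cell markers, led by *Ctla4*, 3 were higher in *Stat5b* KI cells at 48 hr, with sums of 22 to 24 against 7.13 to 8.95 RPKM, and 1 at 0 hr, with mean sums of 98.2 against 56.9 RPKM. Of the 4 plasma cell markers tested, 3 were higher in *Stat5b* KI cells at 0 hr, with mean sums of 116.7 against 40.5 RPKM, and 62.6 against 10.8 RPKM without *Xbp1*. At 48 hr, 3 were higher and *Xbp1*, the most abundant, was lower, with sums of 36.9 to 41.9 against 55.6 to 57.2 RPKM with *Xbp1* and 14.8 to 19.2 against 1.33 to 1.48 RPKM without it. Of 7 NK cell markers, led by *Fcer1g*, 2 were higher and 3 lower at 48 hr, with sums of 60.4 to 69.8 against 73.6 to 133.2 RPKM, and 4 were lower at 0 hr, with mean sums of 38 against 44.4 RPKM, or 6.53 against 27.2 RPKM without *Fcer1g*. Neutrophil markers, led by *S100a9*, summed to 39.2 to 56.4 RPKM in *Stat5b* KI cells and 5.98 to 24.8 RPKM in WT at 0 hr, where 2 of the 5 tested were called higher, and to at most 2.52 RPKM in either group at 48 hr. Over the 47 libraries, no marker was at 0 in all, and those at 0 in some included *Tnfrsf17* of the plasma cells, *Csf1r*, *Cd14*, *C1qa* and *C1qb* of the macrophages, *Cd209a* of the dendritic cells, *Epor* and *Slc4a1* of the erythroid cells and all 6 neutrophil genes found. *Irf4*, *Irf5* and *Irf8* are also expressed by B cells, macrophages or dendritic cells. In bulk RNA, fewer cells of a type and less RNA per cell cannot be told apart.

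Over the 8 members and 3 times in both lines, the comparisons with 0 hr gave 8 calls in WT cells and 15 in KI cells, and every call in KI cells was a fall. At 4 hr against 0 hr in WT cells, *Irf2* was higher in the *Stat5a* line (10.0% of all genes were), a call that rests on replicate 2 of 4 hr. *Irf8* was lower in the *Stat5a* line (11.4%) and the *Stat5b* line (9.89%), where 5.83% of all genes were higher. At 24 hr, *Irf4* and *Irf5* were lower in the *Stat5a* line (14.2%, with 8.72% higher) and *Irf5* in the *Stat5b* line (13.5%, with 9.07% higher), and at 48 hr *Irf5* was lower in the *Stat5a* line (22.3%, with 14.3% higher) and the *Stat5b* line (20.7%, with 14.6% higher). Between steps, *Irf1* and *Irf7* were higher at 24 than at 4 hr in the *Stat5a* line (7.46% of all genes) and *Irf8* in the *Stat5b* line (7.34%), where *Irf5* was lower (7.49%), and *Irf4* was higher at 48 than at 24 hr in the *Stat5a* line (3.83%) and the *Stat5b* line (3.05%). In *Stat5a* KI cells, 2, 3 and 3 of the 8 fell at 4, 24 and 48 hr against 0 hr, beside 11.2%, 13.8% and 16.7% of all genes, and none rose, beside 6.58%, 7.36% and 9.31%. In *Stat5b* KI cells, 1, 3 and 3 fell, beside 8.85%, 11.2% and 13.2% of all genes, and none rose, beside 4.92%, 4.59% and 5.56%. With 8 members, the absence of rises is near these shares. The members that fell were *Irf4*, *Irf5* and *Irf8* at 24 and 48 hr in both lines, *Irf4* and *Irf8* at 4 hr in *Stat5a* KI cells, and *Irf8* at 4 hr in *Stat5b* KI cells.

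**Figure D1:**
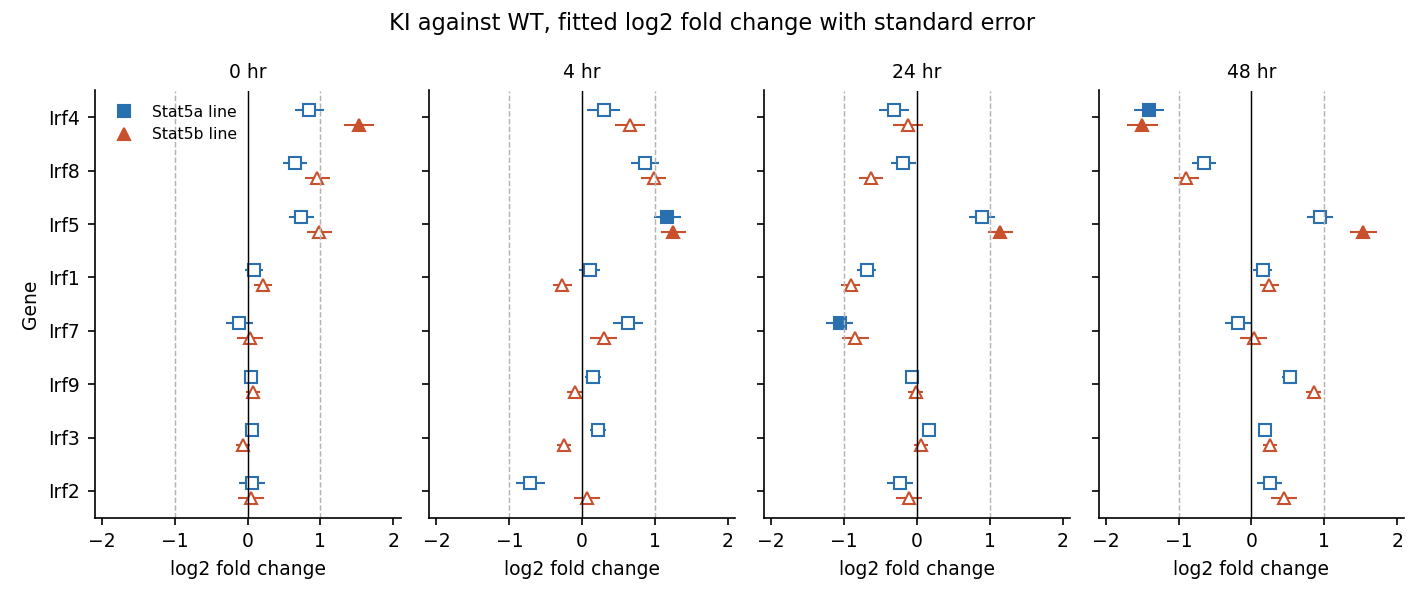
Fitted log2 fold change of KI against WT with its SE for the 8 members at 0, 4, 24 and 48 hr in the *Stat5a* line (squares) and the *Stat5b* line (triangles), where filled symbols are called and dashed lines mark a fold of 2. *Irf4* goes from 1.53 at 0 hr to −1.50 at 48 hr in the *Stat5b* line, and *Irf5* stays above 0 at all times.

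Between KI and WT cells, at most 2 of the 8 members were called at any time in either line. In the *Stat5a* line at 0 hr, none of the 8 was called by edgeR, DESeq2 or limma, 3 had an unadjusted p under 0.05 in edgeR, and 0.861% of all genes were higher and 0.180% lower. At 4 hr, *Irf5* was higher in the *Stat5a* line (2.47% of all genes, with 4.16% lower) and the *Stat5b* line (9.20%, with 1.23% lower). *Irf4* was higher in the *Stat5b* line at 0 hr (7.38%, with 0.604% lower). At 24 hr, *Irf7* was lower in the *Stat5a* line (1.24%, with 3.21% higher), and *Irf5* was higher in the *Stat5b* line (10.9%, with 5.77% lower). At 48 hr, *Irf4* was lower in the *Stat5a* line (2.43%, with 6.35% higher) and the *Stat5b* line (9.81%), where *Irf5* was higher (16.5%). The share of lower genes among all at 4 hr in the *Stat5a* line rests on WT replicate 2, since without it 78 genes were lower in place of 648. An edgeR fit of only the groups compared, with 2 KI libraries, called 0 of 13842 genes there, with 669 at an unadjusted p under 0.05. Over the 47 libraries, edgeR called 384 higher and 648 lower, DESeq2 346 and 807, and limma on log2(RPKM + 1) 235 and 14. The differences of responses were lower for 1 and 2 members at 24 and 48 hr in the *Stat5a* line, beside 1.31% and 3.09% of all genes, and for 3 and 2 members in the *Stat5b* line, beside 6.66% and 11.1%. The 1 at 24 hr in the *Stat5a* line was *Irf4* (−1.17), which was not called without WT replicate 3 at 0 hr (−0.85).

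The KI effects of the lines were compared directly at 24 and 48 hr. For none of the 8 members was the difference called, by edgeR, DESeq2 or limma, and in edgeR 0 had an unadjusted p under 0.05 at 24 hr and 2 at 48 hr. Among all genes, 1.39% were higher and 1.27% lower in the *Stat5b* than the *Stat5a* effect at 24 hr, and 1.55% and 0.514% at 48 hr. The largest value was that of *Irf5* at 48 hr, 0.59 ± 0.25 (adjusted p = 0.134), and for *Irf4* it was −0.09 ± 0.29 (adjusted p = 0.892). This does not show that the alleles act alike.

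*Irf4* had the largest difference in response between the genotypes among the 8, and the order of KI and WT cells turned around with time in culture. At 0 hr, *Irf4* was at 26.3, 26.5 and 27.4 RPKM in *Stat5b* KI cells and at 9.37, 8.27 and 8.98 RPKM in their WT, so every KI library was above every WT library. At 48 hr, it was at 6.13, 6.13 and 6.00 RPKM in *Stat5b* KI cells and at 17.8, 15.6 and 15.4 RPKM in WT, with every KI library below. The fitted differences were 1.53 ± 0.21 on the log2 scale at 0 hr (adjusted p = 2.41e-06) and −1.50 ± 0.21 at 48 hr (adjusted p = 1.12e-07). The values between these times converged: at 4 hr, KI libraries were at 17.7 to 22.2 RPKM and WT libraries at 11.2 to 12.6 RPKM, a difference of 0.66 ± 0.20 that was under the fold limit, and at 24 hr the ranges of 6.62 to 7.6 and 5.87 to 8.43 RPKM overlapped.

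**Figure D2:**
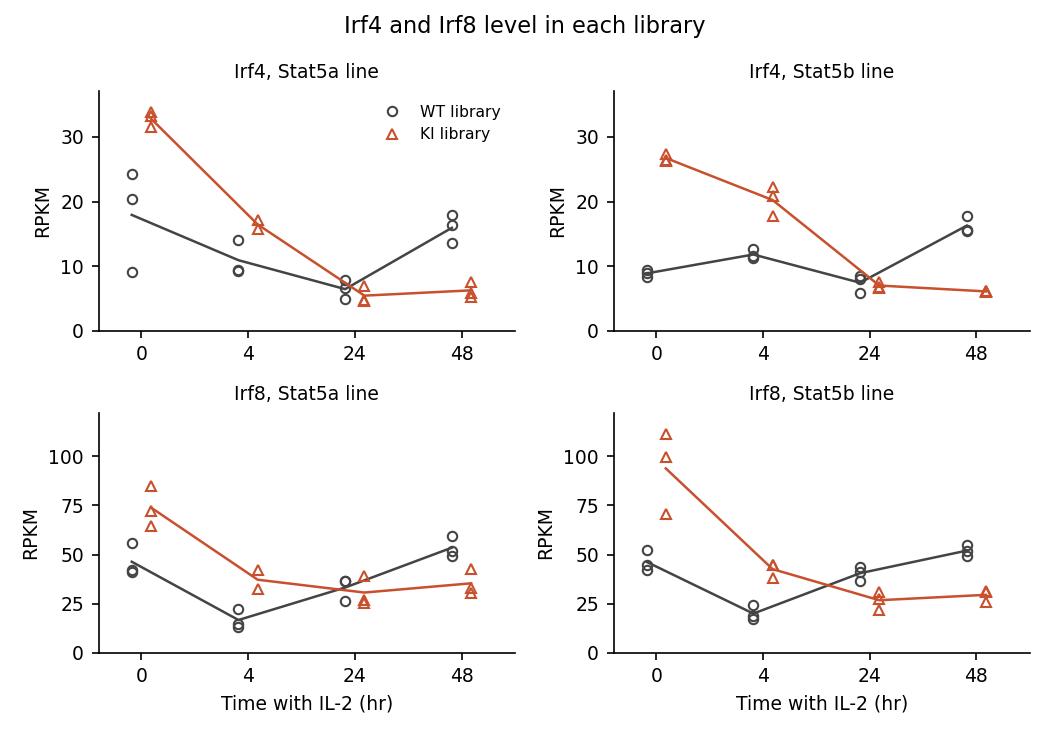
*Irf4* (top) and *Irf8* (bottom) in RPKM against time with IL-2 in the *Stat5a* line (left) and the *Stat5b* line (right), where each symbol is a library, lines join group means and the times are evenly spaced. *Irf4* in *Stat5b* KI cells starts above WT (26.3 to 27.4 against 8.27 to 9.37 RPKM) and ends below it (6.00 to 6.13 against 15.4 to 17.8 RPKM).

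For *Stat5a*, the end point was the same and the start less clear. At 48 hr, *Irf4* was at 7.59, 5.26 and 5.91 RPKM in *Stat5a* KI cells and at 13.6, 16.3 and 17.9 RPKM in WT, and the difference of −1.41 ± 0.21 was called (adjusted p = 1.04e-06). At 0 hr, it was at 33.2, 31.5 and 33.8 RPKM in KI and at 20.4, 24.3 and 9.08 RPKM in WT. These groups did not overlap either, and neither did their sums of B cell markers, at 299 to 367 against 67.9 to 196 RPKM. The difference of 0.85 ± 0.20 (adjusted p = 0.0163) was under the fold limit, and it was 0.51 (adjusted p = 0.187) without WT replicate 3, the library at 9.08 RPKM. Without WT replicate 2, at 24.3 RPKM, it was 1.15 and was called.

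The IL-2 response of *Irf4* differed by genotype. In *Stat5b* KI cells, *Irf4* fell by 2.32 ± 0.21 on the log2 scale from 0 to 48 hr (adjusted p = 1.95e-11), while the WT difference was 0.70 ± 0.21, under the fold limit. The test of the difference between these responses gave −3.03 ± 0.30 (adjusted p = 9.93e-11). In the *Stat5a* line, *Irf4* fell by 2.63 ± 0.22 in KI cells, the WT difference was −0.38 ± 0.20 (−0.63 without WT replicate 3 at 0 hr, and under the fold limit in both), and the difference of responses was −2.26 ± 0.29 (adjusted p = 5.1e-07), or −1.93 without both WT libraries that stood apart. WT cells of both lines raised *Irf4* from 24 to 48 hr, by 1.27 ± 0.21 in that of *Stat5a* (adjusted p = 5.89e-06) and by 1.14 ± 0.21 in that of *Stat5b* (adjusted p = 2.86e-05). At 24 hr, the differences of responses were −1.65 ± 0.29 in the *Stat5b* line (adjusted p = 2.45e-05) and −1.17 ± 0.29 in the *Stat5a* line (adjusted p = 0.0137), and the latter was −0.85 and was not called without WT replicate 3 at 0 hr. In the *Stat5b* line, the sums of B cell and dendritic cell markers, and of macrophage markers without *Ly6c2*, were higher in KI cells at both 0 and 48 hr, and *Irf4* was higher at 0 hr and lower at 48 hr. With *Ly6c2*, the macrophage sums overlapped at 0 hr and were lower in KI at 48 hr, where *Ly6c2* itself was called lower (−1.30). In *Stat5b* WT cells, *Ly6c2* was at 173.9 to 227.3 RPKM at 0 hr and 566.4 to 591.6 RPKM at 48 hr. The sums of the other macrophage markers there were 35.1 to 43.8 and 3.71 to 5.06 RPKM. Plasma and CD4 T cells can also express *Irf4*, and the sums of their markers were higher in *Stat5b* KI cells at 0 hr as well. The part of these cells in the level of *Irf4* was not tested.

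*Irf8*, known for its part in myeloid, dendritic and B cell development, had the same order of groups with a smaller difference. At 0 hr, it was at 111.1, 99.7 and 70.6 RPKM in *Stat5b* KI cells and at 44.5, 41.9 and 52.4 RPKM in WT. At 48 hr, it was at 31.6, 30.9 and 26.0 RPKM in KI and at 54.8, 49.3 and 51.9 RPKM in WT. Neither pair of groups overlapped, but the differences of 0.96 ± 0.17 (adjusted p = 9.7e-05) and −0.90 ± 0.17 (adjusted p = 2.31e-05) were under the fold limit, and the former passed it in 2 of 47 fits without 1 library. In WT cells, *Irf8* changed at 4 hr by −1.39 ± 0.17 in the *Stat5b* line (adjusted p = 1.81e-08) and by −1.43 ± 0.17 in the *Stat5a* line (adjusted p = 8.32e-09). In *Stat5b* WT cells it stood at 18.5, 17.2 and 24.2 RPKM at 4 hr and was higher by 1.01 ± 0.17 at 24 hr than at 4 hr, close to the fold limit. At 48 hr, the differences of WT cells from 0 hr were −0.01 ± 0.17 and −0.00 ± 0.17.

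In KI cells, *Irf8* stayed below its level at 0 hr. It fell from 0 to 48 hr by 1.86 ± 0.18 in *Stat5b* KI cells (adjusted p = 3.17e-11) and fell by 1.30 ± 0.17 in *Stat5a* KI cells (adjusted p = 3.28e-08). The differences of responses at 48 hr were −1.85 ± 0.24 in the *Stat5b* line (adjusted p = 4.85e-08) and −1.30 ± 0.24 in the *Stat5a* line (adjusted p = 9.17e-05), and at 24 hr that of the *Stat5b* line was −1.58 ± 0.24 (adjusted p = 2.06e-06). At 48 hr in the *Stat5a* line, *Irf8* was at 42.8, 30.4 and 32.9 RPKM in KI cells and at 49.3, 59.2 and 52.0 RPKM in WT, a difference of −0.65 ± 0.17 that was under the fold limit. At 0 hr in that line it was at 64.6 to 84.8 RPKM in KI and 41.3 to 55.8 RPKM in WT, a difference of 0.65 ± 0.17 that was also under it, beside dendritic cell marker sums of 3387 to 4337 against 1482 to 2424 RPKM. Its difference at 4 hr in the *Stat5b* line, 0.98 ± 0.17, also fell short of the limit, and it ranged from 0.89 to 1.13 when single libraries were left out, past the limit in 27 of 47 fits. The sums of dendritic and B cell markers were above WT in *Stat5b* KI libraries at all 4 times, while *Irf8* was above WT at 0 and 4 hr (group means of 93.8 against 46.3 RPKM and 42.6 against 20 RPKM) and below it at 24 and 48 hr (26.8 against 40.5 RPKM and 29.5 against 52 RPKM). At 4 hr, the mean sums of dendritic cell markers were 2340 against 793.6 RPKM and those of B cell markers 232.8 against 52.7 RPKM. The part of these cells in the level of *Irf8* was not tested.

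Of 17 partners of *Irf4* and *Irf8* (AP-1 proteins of the *Batf*, *Jun* and *Fos* families, ETS proteins and others), 8 fell in WT cells of both lines by 48 hr. Of all genes, 22.3% (*Stat5a*) and 20.7% (*Stat5b*) fell, shares of each line alone and not of genes called in both. The largest falls were those of *Fos*, with a mean log2 fold change of −8.31 over the lines, and *Spi1*, which encodes the ETS factor PU.1, with −4.28. The list medians of the *Stat5a* and *Stat5b* lines were −0.69 and −0.90, against all-gene medians of −0.12 and −0.13. Between KI and WT cells at 48 hr, 2 of the 17 were higher and 0 lower in both lines. Of all genes, 6.35% were higher and 2.43% lower in the *Stat5a* line alone, and 16.5% and 9.81% in the *Stat5b* line alone. In *Stat5b* KI against WT cells at 48 hr, the largest rises were those of *Spib* (3.40) and *Spi1* (3.35), both made by B or myeloid cells. The largest falls were those of *Fosl2* (−1.89) and *Jun* (−1.09), and the list median was 0.15. *Batf*, the AP-1 partner best known with *Irf4* in T cells and picked out here after its value was seen, differed by −0.23 in that comparison and was not called.

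Of 20 genes linked to *Irf4* in CD8+ T cells, 7 rose and 6 fell in WT cells of both lines at 48 hr. Of all genes, 14.3% rose and 22.3% fell in *Stat5a* WT cells alone, and 14.6% and 20.7% in those of *Stat5b* alone. *Gzmb*, the effector protease granzyme B, went from 4.86 to 11.3 RPKM at 0 hr to 1221 to 1426 RPKM at 48 hr in *Stat5b* WT cells, a mean rise of 7.26 over the lines. *Zbtb32*, a transcriptional repressor, rose by a mean of 4.16, whereas *Bcl6*, a repressor of effector genes, and *Ccr7*, a homing receptor of naive cells, fell (−2.99 and −2.28). In *Stat5b* KI against WT cells at 48 hr, 6 were higher and 7 lower, beside 16.5% and 9.81% of all genes (list median 0.07, all-gene median 0.10). *Gzmb* was lower (−4.30), with KI libraries at 68.6 to 75.5 RPKM, and so was *Zbtb32* (−3.30), while *Bcl6* was higher by 2.51 and *Cdkn1b*, an inhibitor of the cell cycle, by 1.34. In the *Stat5a* line, 1 was higher and 5 were lower, beside 6.35% and 2.43% of all genes, with a list median of −0.46. *Bcl6* is also made by B cells, and the part of the B cell markers in its difference was not tested.

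*Irf1* and *Irf7*, both induced by interferon, had their lowest WT group means at 4 hr and their highest at 24 hr in both lines, and at 24 hr the KI libraries lay below the WT libraries. At other times the order could differ, since in both lines the KI libraries of *Irf7* lay above WT at 4 hr (means of 29 against 15.2 RPKM for *Stat5a* and 24.3 against 18.3 RPKM for *Stat5b*) and those of *Irf1* at 48 hr (184.5 against 160.2 and 160.7 against 128.6 RPKM), none of them called. In *Stat5b* WT cells, *Irf1* was at 103.7, 114.3 and 143.4 RPKM at 4 hr and at 218.0, 221.7 and 207.3 RPKM at 24 hr, and *Stat5b* KI cells at 24 hr were at 113.6, 117.2 and 120.6 RPKM. Every KI library was below every WT library at 24 hr in both lines. The differences of −0.91 ± 0.13 in the *Stat5b* line (adjusted p = 2.89e-07) and −0.69 ± 0.13 in the *Stat5a* line (adjusted p = 0.000256) were under the fold limit. Relative to 0 hr, the responses at 24 hr differed by −1.12 ± 0.18 in the *Stat5b* line (adjusted p = 6.15e-06), which was called, and by −0.78 ± 0.18 in the *Stat5a* line (adjusted p = 0.00798), which was not.

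*Irf7*, the member that amplifies type I interferon production, was at 31.2, 54.1 and 56.7 RPKM in *Stat5a* WT cells and at 30.6, 19.7 and 21.1 RPKM in *Stat5a* KI cells at 24 hr, a called difference of −1.06 ± 0.19 (adjusted p = 0.000115). It ranged from −1.32 to −0.94 when single libraries were left out, and 4 of these left it under the fold limit. It was also not called by limma. In the *Stat5b* line, the levels were 33.9, 38.8 and 34.3 RPKM in WT and 18.6, 18.9 and 23.3 RPKM in KI, with no overlap, and the difference was −0.85 ± 0.19 (adjusted p = 0.000226). From 4 to 24 hr, WT cells of the *Stat5a* line raised *Irf7* by 1.41 ± 0.19 (adjusted p = 6.99e-08) and *Irf1* by 1.02 ± 0.13 (adjusted p = 2.58e-08). The value of *Irf1* was 0.89 to 1.06 over the 47 fits that left out 1 library and was under the fold limit in 27 of them.

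**Figure D3:**
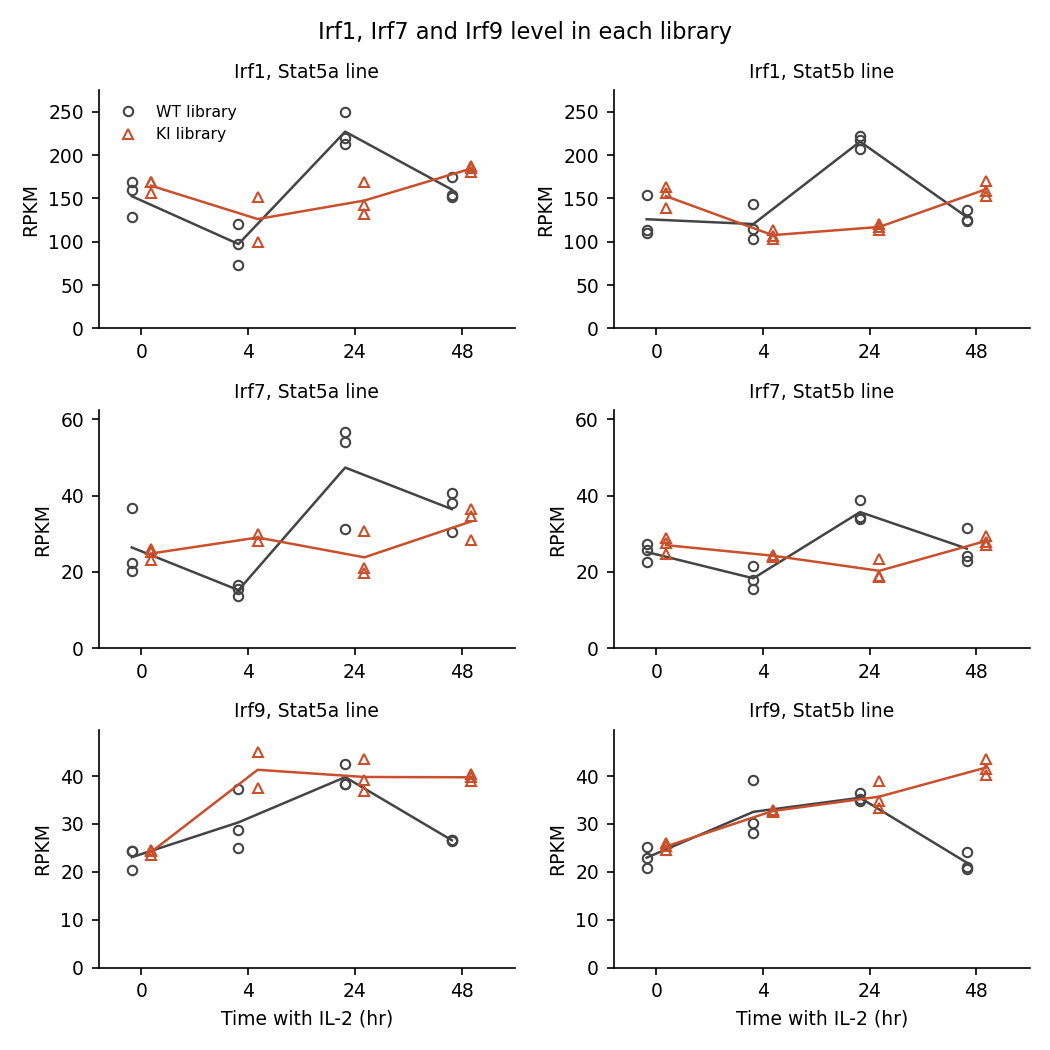
*Irf1*, *Irf7* and *Irf9* (top to bottom) in RPKM against time with IL-2 in the *Stat5a* line (left) and the *Stat5b* line (right), where each symbol is a library, lines join group means and the times are evenly spaced. *Irf1* in *Stat5b* cells at 24 hr lies at 207.3 to 221.7 RPKM in WT and at 113.6 to 120.6 RPKM in KI, and *Irf9* separates at 48 hr in both lines.

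*Irf9*, which binds DNA within a complex activated by interferon receptors, was apart at 48 hr in both lines. It was at 43.5, 40.3 and 41.5 RPKM in *Stat5b* KI cells and at 21.0, 20.7 and 24.1 RPKM in WT, and at 40.4, 39.0 and 39.8 against 26.6, 26.5 and 26.7 RPKM in the *Stat5a* line. In both lines, the KI libraries were all above the WT libraries. The differences of 0.85 ± 0.10 (adjusted p = 2.83e-09) and 0.53 ± 0.10 (adjusted p = 4.72e-05) were under the fold limit. The means of *Stat5b* WT cells were 23.0 RPKM at 0 hr and 21.9 RPKM at 48 hr, and those of KI cells were 25.3 and 41.8 RPKM. The responses at 48 hr differed by 0.78 ± 0.14 in the *Stat5b* line (adjusted p = 1.76e-05) and by 0.48 ± 0.14 in the *Stat5a* line (adjusted p = 0.0101), both under the fold limit.

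Interferon genes were represented by *Ifng* alone, the 1 of 9 listed with enough reads to test. *Ifng* encodes interferon gamma, the type II interferon of T cells and an inducer of *Irf1*. In WT cells it fell at 4 hr, with log2 fold changes of −2.22 and −2.48 in the *Stat5a* and *Stat5b* lines, and then rose above 0 hr by 1.61 and 1.96 at 24 hr and by 2.57 and 2.30 at 48 hr. *Stat5b* KI cells at 24 hr were at 2.76 to 3.67 RPKM and WT cells at 33.7 to 54.2 RPKM. The differences of *Ifng* between KI and WT were −3.90 in the *Stat5b* line and −3.07 in the *Stat5a* line at 24 hr, and −3.11 and −2.67 at 48 hr.

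Of 50 interferon-stimulated genes, 29 rose in *Stat5a* WT (8.72% of all genes did) and 24 in *Stat5b* WT cells (9.07%) at 24 hr, and 24 did so in both. The falls numbered 2 and 3, beside 14.2% and 13.5% of all genes. *Iigp1*, an interferon-gamma-induced GTPase, was at 1.86 to 3.49 RPKM at 0 hr and 95.4 to 114.3 RPKM at 24 hr in *Stat5b* WT cells. *Ly6a*, which encodes Sca-1, was among the largest rises at 48 hr, by a mean of 3.76, whereas *Ciita*, the regulator of MHC class II genes in antigen-presenting cells, and *Mx2*, an antiviral GTPase, fell (−3.23 and −1.90). At 24 hr, 19 of the 50 were below WT in *Stat5a* KI cells (1.24% of all genes were) and 16 in *Stat5b* KI cells (5.77%), with 13 in common, and list medians were −0.87 and −0.79 against all-gene medians of 0.01 and 0.07. *Iigp1* was lower in the *Stat5b* line (−1.88), with KI libraries at 26.7 to 34.6 RPKM. The gene that was higher in KI in both lines was *Ciita*, by 1.08 and 1.87. The sums of B and dendritic cell markers were also higher in KI, and the part of these cells in the level of *Ciita* was not tested.

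At 4 hr, the called genes of the list were higher in KI, and at 48 hr few were called. In WT cells at 4 hr, 13 of 50 were higher and 12 lower than at 0 hr in the *Stat5a* line (10.0% and 11.4% of all genes), while these numbers were 8 and 9 for *Stat5b* WT cells (5.83% and 9.89%). Between genotypes at 4 hr, 8 of 50 were higher in KI cells of the *Stat5a* line (2.47% of all genes) and 9 in those of the other line (9.20%). The *Stat5a* count was 15 without both WT libraries that stood apart. The share of 2.47% is from the fit of 47 libraries and cannot be set beside that count. An edgeR fit of only the groups compared called 0 genes between *Stat5a* KI and WT cells at 4 hr. At 48 hr, 3 of 50 were lower in *Stat5a* KI cells (2.43% of all genes) and 4 in *Stat5b* KI cells (9.81%), *Ciita* was higher, and the medians were −0.12 and −0.09 against all-gene medians of 0.04 and 0.1. *Oasl2* and *Oas2*, antiviral genes of the oligoadenylate synthetase family, were the lowest against WT in *Stat5b* KI cells (−1.67 and −1.33). *Iigp1* differed by 0.41 there and was not called.

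**Figure D4:**
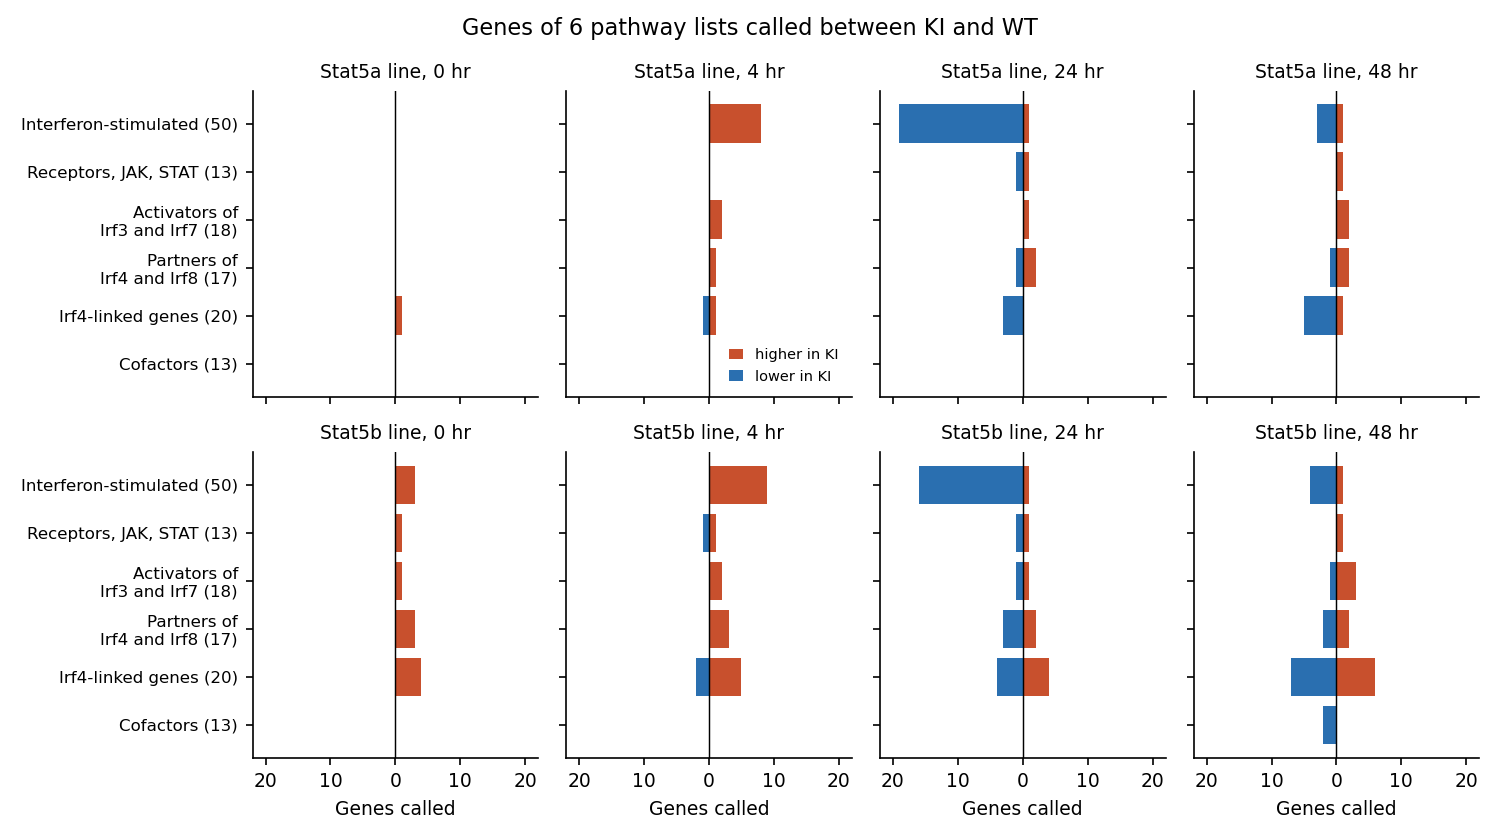
Number of genes called higher (right of 0) or lower (left of 0) in KI than in WT cells for 6 lists, with the number tested in brackets, at each time in the *Stat5a* line (top) and the *Stat5b* line (bottom). Interferon-stimulated genes were lower in KI at 24 hr (19 and 16 of 50) and higher at 4 hr (8 and 9 of 50).

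Upstream of these factors, 4 of 13 genes of the interferon receptors and their JAK-STAT chain rose and 3 fell in WT cells of both lines at 48 hr. Of all genes, 14.3% and 14.6% rose and 22.3% and 20.7% fell in the *Stat5a* and *Stat5b* lines. These shares are of each line alone, whereas the list counts are of genes called in both lines. *Socs1*, a feedback inhibitor of JAK kinases, rose by a mean of 2.92, whereas *Ifnlr1* and *Ifngr2*, receptor chains for type III and type II interferon, fell (−2.19 and −1.83). *Ifnlr1* was the gene called in *Stat5b* KI cells at 48 hr, where it was higher by 2.90 at levels of 0.0995 to 0.129 against 0.00854 to 0.0239 RPKM. Of 18 activators of *Irf3* and *Irf7*, 3 rose and 3 fell in WT cells of both lines at 48 hr. The largest rises were those of *Mb21d1*, which encodes the DNA sensor cGAS (1.97), and *Tmem173*, which encodes its adaptor STING (1.22). The largest falls were those of *Tlr3* and *Tlr9*, which sense nucleic acids in endosomes (−4.00 and −2.36). Between KI and WT cells at 48 hr, 2 of the 18 were higher and 0 lower in both lines. In *Stat5b* KI cells at 48 hr, *Tlr9* and *Tlr3*, both also expressed by B or dendritic cells, were higher by 2.70 and 2.63, and *Mb21d1* was lower (−1.16). Of 13 cofactors, 1 rose and 2 fell in WT cells of both lines at 48 hr. *Kpna3*, an importin, rose by 1.53, and *Irf2bp2*, a corepressor of *Irf2*, and *Crebbp*, a histone acetyltransferase, fell (−1.63 and −1.35). Between KI and WT cells, 0 of the 13 were called in both lines at 48 hr. The shares of all genes higher and lower then were 6.35% and 2.43% (*Stat5a*) and 16.5% and 9.81% (*Stat5b*). *Kpna3* was among those lower in *Stat5b* KI cells at 48 hr (−1.09). The medians of the receptor, activator and cofactor lists in that comparison were 0.20, −0.04 and 0.20, against 0.10 for all genes.

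*Irf3*, a constitutive factor that acts downstream of nucleic acid sensors, and *Irf2* were with *Irf9* the least variable of the 8. *Irf3* was at 19.2, 21.0 and 19.5 RPKM at 0 hr and at 32.7, 34.4 and 34.7 RPKM at 4 hr in *Stat5b* WT cells. These groups did not overlap, and the fitted difference was 0.60 ± 0.09 (adjusted p = 1.85e-06), under the fold limit. Its differences between KI and WT were between −0.25 and 0.25 in all 8 comparisons. *Irf2* was called once, higher by 1.00 ± 0.18 in *Stat5a* WT cells at 4 hr (adjusted p = 1.09e-05), from libraries at 50.5, 84.3 and 48.7 RPKM against 33.2 to 35.4 RPKM at 0 hr. The value of 84.3 RPKM belongs to replicate 2, the WT library that stood apart at 4 hr. Without it the difference was 0.35 and was not called. In *Stat5b* cells at 48 hr, *Irf2* was at 50.8, 48.6 and 47.9 RPKM in KI and at 33.8, 33.7 and 34.9 RPKM in WT, a difference of 0.45 ± 0.18 (adjusted p = 0.0282) under the fold limit.

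*Irf5*, a factor of Toll-like receptor signaling in myeloid and B cells, had its KI libraries above the WT libraries at all 4 times in both lines, and by 48 hr it had fallen from its level at 0 hr in both genotypes of both lines. From 0 to 4 hr it was not called in either KI, and *Stat5b* KI cells at 4 hr had the highest group mean of the 16, 25.8 RPKM. In *Stat5b* cells at 48 hr, it was at 7.48, 6.87 and 6.42 RPKM in KI and at 2.41, 1.99 and 2.39 RPKM in WT, a difference of 1.53 ± 0.18 (adjusted p = 4.14e-09). At 0 hr, the levels were 23.8, 22.3 and 18.6 RPKM in KI and 9.4, 9.44 and 12.4 RPKM in WT, and the difference of 0.99 ± 0.17 lay just under the fold limit. *Irf5* was called higher at 4 hr in both lines, by 1.25 ± 0.17 in the *Stat5b* line (adjusted p = 9.71e-07) and by 1.17 ± 0.19 in the *Stat5a* line (adjusted p = 0.000105), where it was 0.81 and was not called without KI replicate 1, nor called in a fit of only the groups compared (1.12, adjusted p = 0.735), and at 24 hr in the *Stat5b* line, by 1.15 ± 0.18 (adjusted p = 1.15e-06). In *Stat5a* KI cells at 4 hr, *Irf5* was at 26 RPKM in replicate 1 and at 15.8 RPKM in replicate 2. Their dendritic cell marker sums were 2400 and 1310 RPKM, and their B cell marker sums were 347.8 and 231.8 RPKM.

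From 0 to 48 hr, *Irf5* fell by 2.37 ± 0.19 in *Stat5b* WT cells (adjusted p = 5.14e-14), fell by 2.12 ± 0.18 in *Stat5a* WT cells (adjusted p = 5.92e-13), and in their KI cells the changes were −1.83 ± 0.18 and −1.92 ± 0.18. The differences of the responses, 0.55 ± 0.25 (adjusted p = 0.0672) and 0.21 ± 0.25 (adjusted p = 0.582), were not called. All 12 B cell and 12 dendritic cell markers also fell in WT cells of both lines at 48 hr. Of 13 macrophage and monocyte markers, 11 fell and *Ly6c2* rose. Of all genes, 22.3% (*Stat5a*) and 20.7% (*Stat5b*) fell. At 48 hr, 12, 11 and 9 of these B cell, dendritic and macrophage markers were called higher in KI in both lines, as against 7, 1 and 3 at 0 hr. Of all genes, 6.35% (*Stat5a*) and 16.5% (*Stat5b*) were higher at 48 hr, and 0.861% and 7.38% at 0 hr. These shares are of each line alone. Of 10730 genes with a mean of at least 1 RPKM, those with group means of log2 CPM most like *Irf5* were *Whrn* (r = 0.981), *Spi1* (r = 0.978) and *Rnf216* (r = 0.977), over the 16 group means that share the same libraries. The part of other cell types in the level of *Irf5* was not tested.

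**Figure D5:**
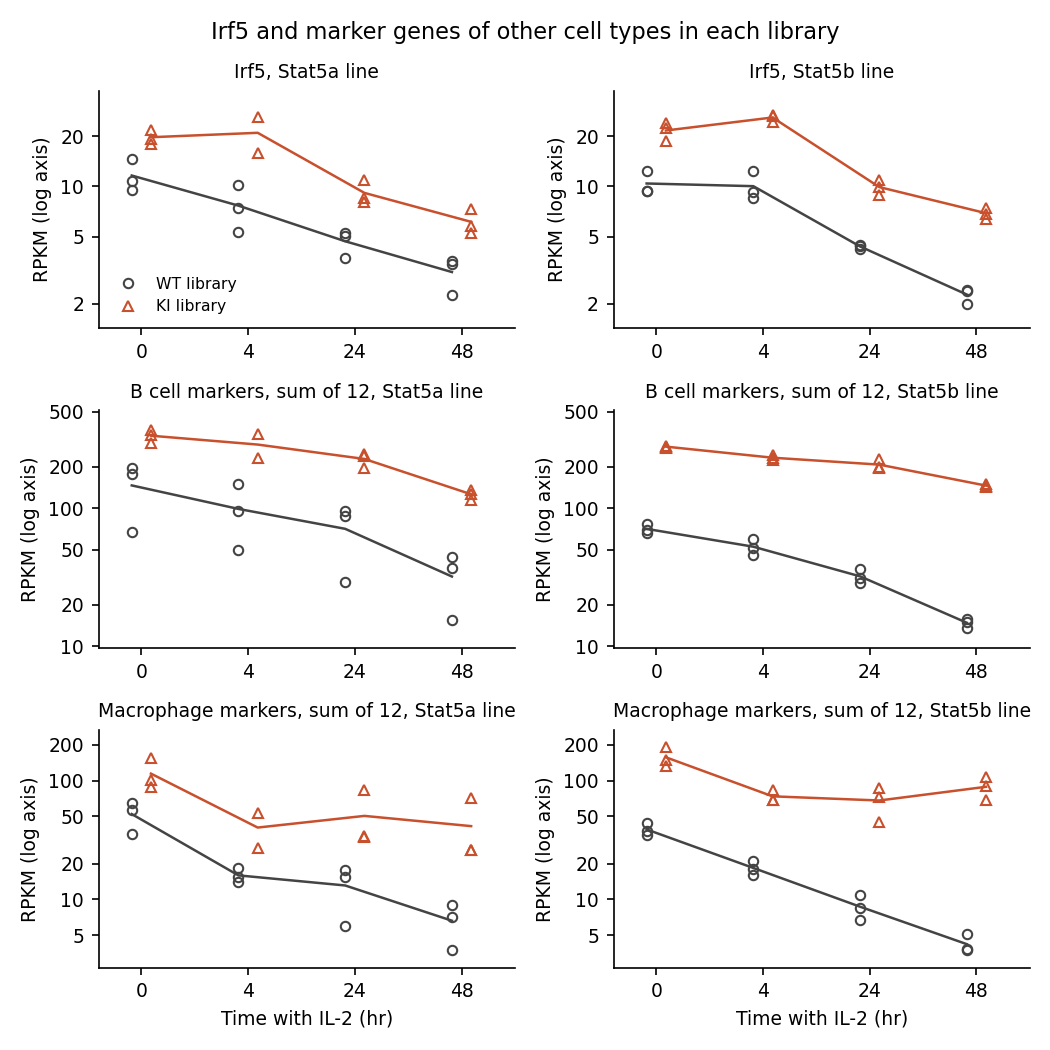
*Irf5* (top), the summed RPKM of 12 B cell markers (middle) and of 12 macrophage and monocyte markers without *Ly6c2* (bottom) against time with IL-2, on log axes, in the *Stat5a* line (left) and the *Stat5b* line (right), where each symbol is a library and lines join group means. In *Stat5b* cells at 48 hr, KI against WT libraries lie at 6.42 to 7.48 against 1.99 to 2.41 RPKM for *Irf5* and at 142.3 to 149.9 against 13.6 to 15.8 RPKM for the B cell markers.

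Over the 16 group means, the closest pair of members was *Irf1* and *Irf7* (r = 0.835), and *Irf7* was also close to *Dhx58* (r = 0.869) and *Bst2* (r = 0.853), both induced by interferon. *Irf4* and *Irf8* had r = 0.674, and *Irf3* and *Irf8* had r = −0.8. The genes most like *Irf4* were *Hspa13* (r = 0.936), *Med7* (0.934) and *Polb* (0.90), and those most like *Irf8* were *Rps4l* (r = 0.976), *Rgs16* (0.943) and *Wbp5* (0.942). For *Irf3* the closest was *Cdc42se1* (r = 0.971), for *Irf2* it was *Tmem136* (r = 0.919), and for *Irf9* it was *Ccm2* (r = 0.876). These values are a description over 16 points that share libraries and scaling.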

How the data were processed

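Per the labels and the methods of the study, the authors sequenced mRNA libraries of total RNA from CD8+ T cells on an Illumina NovaSeq, aligned single-end reads to mm10 with TopHat2 2.0.11 and Bowtie2 2.2.6, kept uniquely mapped reads and deposited, for each of 31682 RefSeq transcripts, the exon read count and the RPKM. The counting program and its use of strand are not given in the sources used here. The deposited counts are whole reads, and the RPKM values were taken as deposited. The longest transcript of each of 23992 symbols was used. The 47 libraries had a median of 41410666 reads on these transcripts, and 3 reads equal 0.0498 to 0.173 CPM.

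Counts of all genes passing filterByExpr (minimum count 10) were fitted with edgeR 4.0.16 in R 4.3.3 (1 mean per group, TMM, quasi-likelihood F test, Benjamini-Hochberg adjustment). SE is the log2 fold change divided by the square root of F. The script was tested on simulated data. Alternatives used DESeq2 1.42.0, limma 3.58.1 on log2(RPKM + 1) and log2(RPKM + 0.1), other scaling, filters, transcripts and libraries, and a replicate block. Named genes are the 8 members, the 2 largest rises and falls among the called genes of each list (WT cells at 48 against 0 hr, and *Stat5b* KI against WT at 48 hr), and the 3 genes most like each member. The members and the lists (interferon receptors and JAK-STAT chain, activators, partners, cofactors, Irf4-linked genes, interferon-stimulated genes, interferons and cell type markers) were chosen with earlier results of these data known. WT groups serve in several comparisons, which therefore share samples. A ChIP control sample was not analysed here.

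Same-numbered libraries of different times deviated together (every r over 0.1) for *Stat5a* WT cells at 24 hr (r = 0.206, 0.273 and 0.419) and 48 hr (r = 0.166, 0.117 and 0.192) against 0 hr, and not in the other comparisons with 3 pairs. *Stat5a* KI at 4 hr has only 2 pairs (r = 0.161 and 0.181 against 0 hr), too few for that rule.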

Additional observations from a re-analysis of the deposited data

Results flagged for a closer look

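For 3 members, the response to IL-2 differed between KI and WT cells of the same line by the test of the difference itself, with an adjusted p not above 0.05 and a 2-fold or larger difference in edgeR's quasi-likelihood test. For *Irf4*, the KI response minus the WT response on the log2 scale was −1.17 at 24 hr and −2.26 at 48 hr for *Stat5a*, and −1.65 and −3.03 for *Stat5b*. For *Irf8*, it was −1.30 at 48 hr for *Stat5a*, and −1.58 at 24 hr and −1.85 at 48 hr for *Stat5b*. For *Irf1*, it was −1.12 at 24 hr in the *Stat5b* line. The *Irf4* value of −1.17 was −0.85 and was not called without *Stat5a* WT replicate 3 at 0 hr. It also lost the call without KI replicate 2 at 24 hr, with all 48 libraries and in a fit of only the groups compared. Single outlying values within a group were not tested.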

How the results depend on the processing

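Counted over the members, there were 8 calls in the WT responses to IL-2 (7 to 8 when single libraries were left out, 7 to 9 under the other alternatives), 6 between successive times (5 to 7 and 5 to 7), 15 in the KI responses (15 to 15 and 13 to 15), 8 between KI and WT (7 to 11 and 8 to 10), 8 in the differences of responses (7 to 10 and 7 to 8) and 0 between the lines. Of 256 differences, 45 were called. None of the called ones changed sign under any alternative. Under at least 1 alternative, 8 of the 45 lost the call and 17 of the others gained one. The replicate block gave 7, 6, 15, 8, 8 and 0 calls, and the call it changed was that of *Irf2* in *Stat5a* WT cells at 4 hr (0.96). That call also went with WT replicate 2 at 4 hr (1.00 to 0.35), and the difference of *Irf2* between *Stat5a* KI and WT cells at 4 hr went from −0.71 to −0.06. Leaving out replicate 3 of 0 hr and replicate 2 of 4 hr of the *Stat5a* WT cells was chosen after seeing the data. Without both, *Irf4* and *Irf7* in *Stat5a* WT cells at 4 hr against 0 hr passed the fold limit (−1.11 and −1.08). The difference of the *Irf7* responses at 4 hr also passed it (1.08), and the difference of the *Irf4* responses at 24 hr lost it (−1.17 to −0.84). The falls of *Irf4* and *Irf8* in *Stat5a* KI cells at 4 hr (both −1.22) were not called by limma. The cause of these changes was not tested beyond the libraries named. Differences of about 2-fold, such as *Irf8* in the *Stat5b* line at 4 hr (0.98, called under 6 of 10 other alternatives and in 27 of 47 fits without 1 library), cannot be placed on either side of the limit with 3 libraries a group.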
